A study of Mus musculus with 40 samples.

Results

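Gene expression in Otulin knockout and wild-type macrophages was compared after 12 h of lipopolysaccharide (LPS). The comparison used the 8 libraries whose labels give 12 h of LPS, 4 knockout and 4 wild type, of the 40 libraries in the study. The cells were primary macrophages grown for 6 days from mouse bone marrow in medium conditioned by L929 cells, a fibroblast line whose medium supplies M-CSF, the growth factor of macrophages. They were reseeded before treatment. The LPS was ultrapure, from Salmonella minnesota, at 500 ng/ml, and other samples were taken before LPS and after 3, 6 and 24 h. RNA was read as tags from the 3′ end of polyadenylated transcripts (QuantSeq FWD, Lexogen).

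The knockout group (KO 1 to KO 4) had the genotype OtulinFL/FL LysMCreTg/WT, and the wild-type group (WT 1 to WT 4) the genotype OtulinFL/FL. Both groups therefore carried a floxed Otulin gene, and Cre recombinase, driven by the LysM promoter of myeloid cells, was present in the knockout group alone. No group had Cre without the floxed allele, so loss of Otulin and presence of Cre cannot be told apart in any difference below. The labels give no age or sex, and do not say which exons Cre removes. Replicates are labelled biological without naming animals, so p-values measure the spread between these samples.

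LPS binds TLR4, which signals through MyD88 and TRIF to NF-kB, MAP kinases and interferon regulatory factors. Linear ubiquitin chains, built by the LUBAC complex (Rnf31, Rbck1 and Sharpin), are part of this signalling and are read by the kinase subunit encoded by Ikbkg. OTULIN is the deubiquitinase that cuts linear chains and no other linkage, and it restrains inflammatory signalling and cell death in myeloid cells.

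Totals at 12 h ran from 4290997 to 5264452 counts in KO and from 4007478 to 6195781 in WT. At the median depth a gene at 5 CPM (counts scaled to a common library size by the TMM method) rested on about 21.8 counts. The first principal component, 34.0% of the variance, did not separate the genotypes: KO 4 lay at -36.3, and KO 3 and WT 4 at 23.4 and 23.5. The third component, 14.6%, did: KO libraries scored from 1.78 to 20.5, and WT libraries from -16.5 to -2.87. Y-linked transcripts marked KO 3 and WT 4 as male (193 and 227 CPM, against at most 0.51 in the others). KO 4 had the highest share of tags on cytosolic ribosomal protein genes (2.41%, against 1.80 to 1.92% in the other 7). The spread between replicates was larger than at the other times, with a biological coefficient of variation of 0.145 against 0.0904 to 0.109.

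All 16 macrophage markers were measured, with a summed level of 11703 to 13624 CPM in KO and 11381 to 14511 in WT, and 9 of 16 log2 differences were above 0. Lymphoid markers summed to at most 1.61 CPM in any library, with Cd79a and Ncr1 at 0, and mast cell and basophil markers to at most 0.764, with Cpa3, Mcpt8 and Fcer1a among 6 at 0. Stromal markers summed to 3.69 to 6.44 CPM in KO and 2.79 to 6.11 in WT. Otulin itself gave 30.6, 32.2, 25.3 and 34.3 CPM in KO and 32.4, 32.1, 28.7 and 30.6 CPM in WT. The groups overlapped, and the log2 difference was -0.012 ± 0.12 (SE; adjusted p = 0.989). Before LPS it was -0.21 ± 0.11, at 3 h -0.41 ± 0.098 and at 6 h -0.29 ± 0.11 (edgeR, adjusted p = 0.685, 0.0564 and 0.291). At 24 h it was 0.59 ± 0.11 (adjusted p = 0.0704), so the sign differed between times and no time passed. A 3′ tag can lie outside the deleted part of the gene, so these values do not check the labels. Otulin also overlaps Ank on the other strand, at 10.8 CPM. Lyz2, the lysozyme gene whose locus carries LysM-Cre, had 1880.0, 1701, 1777 and 2217 CPM in KO and 3389.6, 2514, 2162 and 2547 in WT, a log2 difference of -0.49 ± 0.14 (adjusted p = 0.31). Before LPS the Lyz2 difference was -0.40 ± 0.11 (edgeR, adjusted p = 0.36). At 3, 6 and 24 h it passed, at -0.47 ± 0.094 (0.0258), -0.44 ± 0.075 (0.00752) and -0.59 ± 0.10 (0.0387).

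The direct comparison asked which genes differed between KO and WT after 12 h of LPS. Of 10783 genes tested, 5 passed the test at an adjusted p under 0.05 (0.0464%), 4 higher (0.0371%) and 1 lower (0.00927%) in KO. The 4 were Serpinb1a, a serpin that inhibits neutrophil serine proteases, Procr, the protein C receptor, Pfkfb3, which makes the activator of the glycolytic enzyme phosphofructokinase, and Crbn, the substrate receptor of a cullin ubiquitin ligase. The 1 lower gene was Fgd2, a guanine nucleotide exchange factor for Cdc42. At an unadjusted p under 0.05 there were 417 higher (3.87%) and 415 lower genes (3.85%), 7.72% of those tested. In 532 genes (4.93%) the 4 KO values did not overlap the 4 WT values, with 296 higher (2.75%) and 236 lower (2.19%).

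Serpinb1a had 22.9, 17.2, 22.6 and 23.4 CPM in KO 1 to KO 4 and 7.60, 10.7, 9.00 and 10.0 CPM in WT 1 to WT 4. The groups did not overlap, and KO 2 was the lowest of its group. Serpinb1a was 2.30-fold higher in KO, a log2 difference of 1.20 ± 0.16 (edgeR, adjusted p = 0.0291). Its close copies Serpinb1b and Serpinb1c had means of 3.20 and 4.89 CPM in KO and 2.08 and 3.32 in WT, and tags shared with them could not be separated here. In RNA from whole cultures, a change in the number of cells that express a gene and a change in its RNA per cell cannot be told apart.

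Procr had 443, 436, 428 and 503 CPM in KO and 289, 185, 174 and 189 CPM in WT. WT 1 was the highest of its group and still below every KO library. Procr was 2.17-fold higher in KO, a log2 difference of 1.11 ± 0.15 (edgeR, adjusted p = 0.0291). Pfkfb3 had 437, 401, 409 and 286 CPM in KO and 211, 231, 214 and 219.6 in WT. The WT libraries lay close together and KO 4 was the lowest of the KO libraries, above all of WT. Pfkfb3 was 1.75-fold higher, a log2 difference of 0.81 ± 0.12 (adjusted p = 0.0426).

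Crbn had 121, 101, 97.0 and 102 CPM in KO and 67.9, 62.4, 66.9 and 50.4 in WT. The groups did not overlap, and Crbn was 1.70-fold higher in KO, a log2 difference of 0.76 ± 0.12 (adjusted p = 0.0426). Crbn overlaps Trnt1 on the other strand, and how the authors' counting treated strand is not given in the sources used here. Trnt1, a transfer RNA enzyme, differed by 0.14 ± 0.13 (adjusted p = 0.841). Fgd2 had 19.2, 18.9, 20.3 and 14.3 CPM in KO and 29.1, 46.6, 39.4 and 53.4 CPM in WT. Its WT values spread widely, with WT 1 nearest to the KO range, and the groups did not overlap. Fgd2 fell by 1.21 ± 0.18 on the log2 scale (adjusted p = 0.0426).

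**Figure D1:**
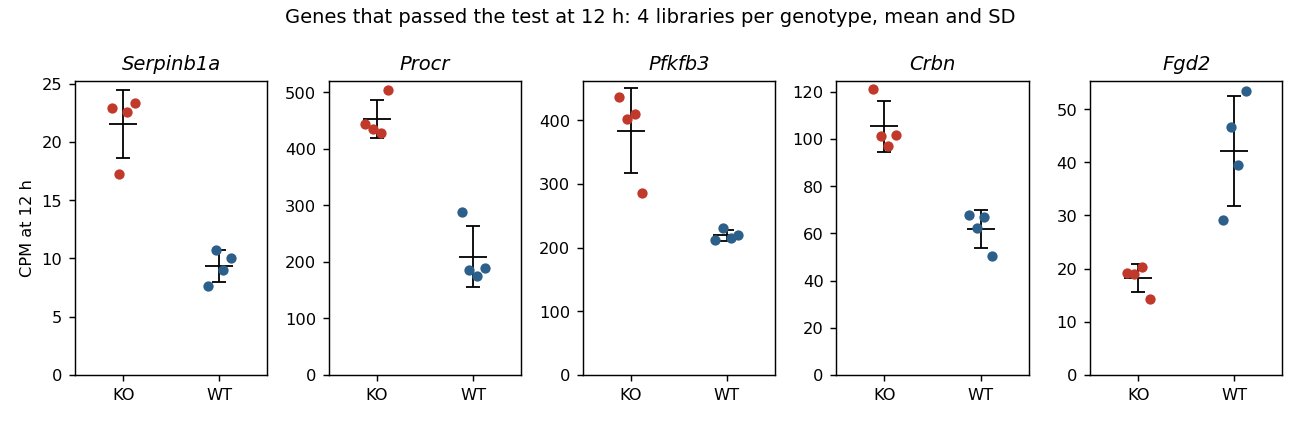
Expression of the 5 genes that passed the test at 12 h, in CPM on axes that start at 0; each dot is 1 library, and the bars are the mean and SD of 4. No KO value overlapped a WT value in any of the 5 genes. WT 1 was the highest WT library of Procr (289 CPM), and KO 4 the lowest KO library of Pfkfb3 (286 CPM).

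**Figure D2:**
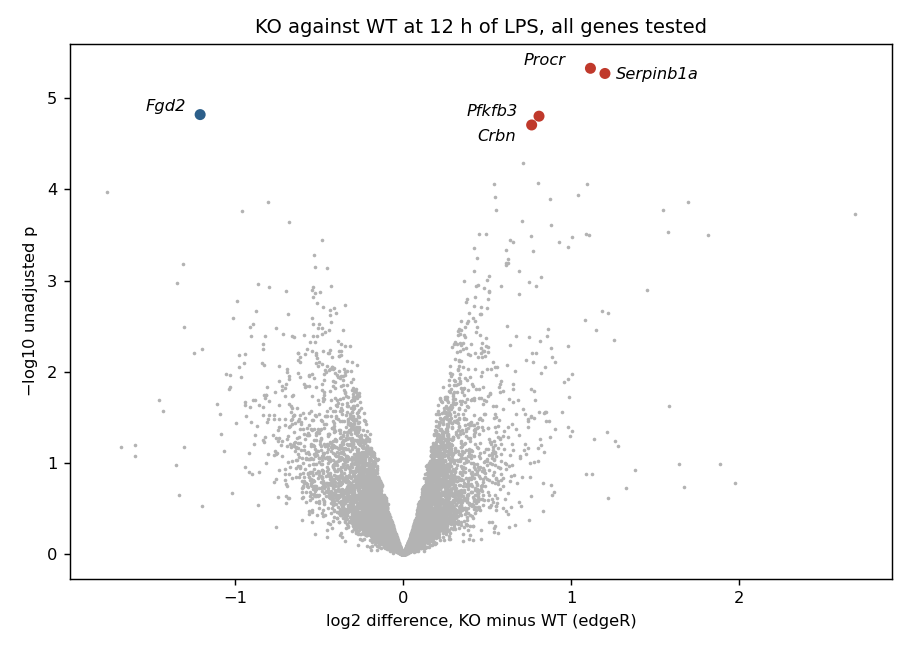
Log2 difference between KO and WT against -log10 of the unadjusted p for the 10783 genes tested at 12 h; the coloured dots are the 5 genes with an adjusted p under 0.05. Genes spread to both sides in like numbers, 417 higher and 415 lower at an unadjusted p under 0.05.

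Which genes passed changed when single libraries were left out, in fits that also had fewer libraries. In edgeR, without KO 1, WT 2, WT 3 or WT 4 no gene passed, without KO 2 only Serpinb1a did, and without both male animals, KO 3 and WT 4, none of the 5 did. Without KO 3 all 5 were among 12 genes called, and without KO 4 all 5 were among 18. Without WT 1 10 genes were called, among them all of the 5 but Pfkfb3. DESeq2 called 57 genes and limma-voom 1, Procr.

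The promoters of these genes are shown because the 5 are the genes that passed at 12 h. Of the 5, 4 are in the RefSeq promoter table (GRCm38.p6, a build other than the GRCm39 of the counts). Each sequence is the 250 bases before an annotated transcription start, 5′ to 3′ on the strand of the gene. Capitals mark matches, on either strand, to TGANTCA (AP-1), to GGGA and CC with any 4 bases between (NF-kB), to TGACNNNGC (core of the antioxidant response element) and to ACGTG or GCGTG (cores of hypoxia response elements). A pair of GAAA with any 2 bases between (interferon-stimulated response element) was searched too, with no match in the 5 windows.
Procr, chr2:155750967-155751216, plus strand: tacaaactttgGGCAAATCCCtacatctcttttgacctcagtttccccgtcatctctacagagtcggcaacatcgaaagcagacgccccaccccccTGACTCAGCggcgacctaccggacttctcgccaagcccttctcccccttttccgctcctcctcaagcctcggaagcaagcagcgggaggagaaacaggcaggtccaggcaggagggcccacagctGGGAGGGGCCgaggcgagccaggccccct
Fgd2, chr17:29360664-29360913, plus strand: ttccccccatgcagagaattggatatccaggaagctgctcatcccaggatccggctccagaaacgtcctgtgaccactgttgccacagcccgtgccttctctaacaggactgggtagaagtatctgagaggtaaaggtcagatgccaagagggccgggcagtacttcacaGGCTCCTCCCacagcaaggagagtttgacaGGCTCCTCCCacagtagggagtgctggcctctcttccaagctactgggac
Pfkfb3, first start, chr2:11553930-11554179, minus strand: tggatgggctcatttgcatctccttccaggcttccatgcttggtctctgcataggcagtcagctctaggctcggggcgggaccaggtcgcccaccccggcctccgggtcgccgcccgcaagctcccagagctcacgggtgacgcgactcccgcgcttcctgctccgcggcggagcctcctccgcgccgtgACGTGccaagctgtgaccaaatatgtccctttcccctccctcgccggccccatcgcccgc
Pfkfb3, second start, chr2:11502091-11502340, minus strand: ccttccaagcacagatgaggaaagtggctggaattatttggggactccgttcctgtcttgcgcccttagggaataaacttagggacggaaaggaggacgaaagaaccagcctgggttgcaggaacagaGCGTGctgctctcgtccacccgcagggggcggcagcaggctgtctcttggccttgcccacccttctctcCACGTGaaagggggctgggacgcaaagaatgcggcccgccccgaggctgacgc
Crbn, chr6:106800088-106800337, minus strand: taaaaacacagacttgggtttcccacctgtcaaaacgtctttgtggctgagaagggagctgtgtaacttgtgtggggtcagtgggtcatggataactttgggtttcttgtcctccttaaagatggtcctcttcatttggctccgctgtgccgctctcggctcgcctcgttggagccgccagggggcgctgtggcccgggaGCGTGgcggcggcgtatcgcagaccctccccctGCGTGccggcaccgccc

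Procr held TGACTCAGC 154 bases before its start, which matches both TGANTCA and TGACNNNGC, and the NF-kB word at 239 and 29 bases. Fgd2 held GGCTCCTCCC, the NF-kB word on the other strand, at both 80 and 50 bases. Pfkfb3 held ACGTG at 60 bases before its first start, and CACGTG, which matches ACGTG on both strands, at 53 bases before its second, with GCGTG at 122. Crbn held GCGTG at 50 and 17 bases. Over all 32851 promoter windows of this length, 6.75% held TGANTCA, 17.6% the NF-kB word, 10.2% TGACNNNGC, 16.6% ACGTG, 28.2% GCGTG and 2.98% the interferon word. The matches are short words that many promoters hold, and they are descriptions of sequence only.

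Each gene was also followed through the other times, in CPM scaled over all 40 libraries. Procr went from 23.6 ± 3.72 (SD, n = 4) in KO and 18.5 ± 2.50 in WT before LPS to 346 ± 12.4 and 203 ± 33.3 at 6 h, 484 ± 35.8 and 223 ± 58.0 at 12 h, and 417 ± 61.8 and 238 ± 60.5 at 24 h. The mean was higher in KO at each of these times, and the log2 difference was 0.76 ± 0.10 at 6 h (edgeR, adjusted p = 0.00228) and 0.80 ± 0.16 at 24 h (adjusted p = 0.13). Serpinb1a had low levels late: its WT mean was 15.8 ± 1.91 before LPS, 16.9 ± 3.65 at 6 h, 9.93 ± 1.40 at 12 h and 3.05 ± 0.431 at 24 h. In KO it was 20.3 ± 2.02, 27.4 ± 3.60, 23.0 ± 3.17 and 5.36 ± 1.48 at the same times. The log2 difference was 0.71 ± 0.16 at 6 h, where it passed (adjusted p = 0.042), and 0.82 ± 0.27 at 24 h, where both means were lowest (adjusted p = 0.377).

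Pfkfb3 began level, at 61.0 ± 6.50 CPM in KO and 62.7 ± 4.47 in WT before LPS, and at 3 h the genotypes differed by -0.14 ± 0.17 on the log2 scale (adjusted p = 0.825). At 6 h it was 439 ± 44.1 in KO and 305 ± 50.7 in WT, a log2 difference of 0.51 ± 0.12 (adjusted p = 0.0653), and at 12 h 410.1 ± 72.3 and 233 ± 8.49. The KO mean of Crbn was highest at 6 h, with 144 ± 15.4 CPM in KO and 80.0 ± 6.78 in WT, where the difference was 0.84 ± 0.090 (adjusted p = 0.000192). At 24 h Crbn stood at 106 ± 5.77 and 81.8 ± 4.49 (adjusted p = 0.13). The KO mean of Fgd2 was lowest at 6 h, at 9.96 ± 2.06 CPM in KO and 17.2 ± 2.55 in WT (adjusted p = 0.0433), and stood at 44.8 ± 10.9 in WT but 19.5 ± 2.89 in KO at 12 h. Before LPS it had stood at 26.0 ± 4.28 in WT and 21.0 ± 3.73 in KO.

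**Figure D3:**
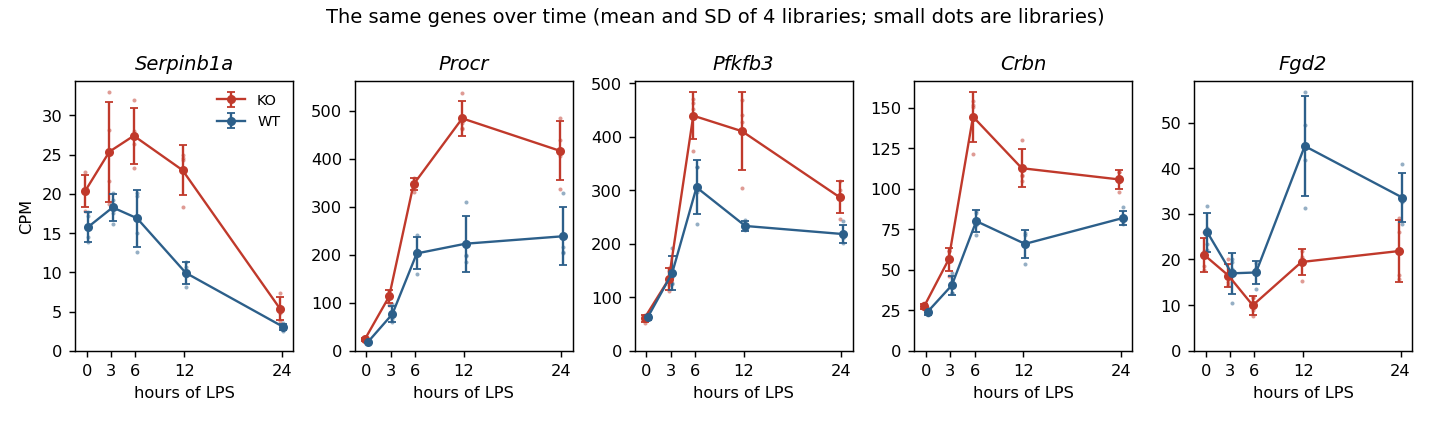
The 5 genes in CPM (scaled over 40 libraries) against hours of LPS; large dots and bars are the mean and SD of 4 libraries per genotype, and small dots are libraries. Procr mean CPM at 12 h was 484 in KO and 223 in WT, and Pfkfb3 mean CPM before LPS was 61.0 in KO and 62.7 in WT.

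Whether the genotype difference at 12 h itself departed from that at another time was tested as an interaction over 16 libraries. No gene passed against 0, 6 or 24 h in edgeR, where 396 (3.26%), 331 (2.94%) and 373 (3.25%) genes had an unadjusted p under 0.05. DESeq2 called 1 (Pfkfb3), 0 and 1 gene (Vegfa), and limma-voom 0 each time. These fits took the 16 libraries as independent, while same-numbered libraries of one genotype deviated together between 12 and 24 h (r from 0.149 to 0.483 in all 8 cases). The same r was less even at the other times, from -0.084 to 0.27 against 0 h and from -0.0067 to 0.52 against 6 h. With the same-numbered libraries as a block, edgeR called 0, 1 and 0 genes, the 1 being Stard7, a lipid transfer protein, named after its value was seen. Pfkfb3 had the smallest p against 0 h, where its genotype difference was larger at 12 h by 0.83 ± 0.16 on the log2 scale (adjusted p = 0.460). Without KO 4 this value was 0.89 ± 0.11 and passed in edgeR (adjusted p = 0.00376). Against 0 h the same value was 0.82 ± 0.20 for Serpinb1a, 0.76 ± 0.22 for Procr, 0.55 ± 0.15 for Crbn and -0.92 ± 0.25 for Fgd2, none past the threshold. Against 24 h the smallest p belonged to Vegfa, the endothelial growth factor, at 0.73 ± 0.14 (adjusted p = 0.440). The count of genes called between KO and WT was 0 before LPS (edgeR; 900 at an unadjusted p under 0.05), 76 at 3 h (0.689% of those tested), 106 at 6 h (1.01%) and 9 at 24 h (0.0809%). The median SE of a log2 difference was 0.155 at 12 h against 0.121 to 0.135 at the other times.

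Among genes that did not pass, those higher in KO with the smallest p and no overlap were led by Scarf1, a scavenger receptor, with 70.5, 60.0, 58.3 and 63.4 CPM in KO and 43.1, 42.3, 37.1 and 31.7 in WT, a difference of 0.71 ± 0.12 (adjusted p = 0.0931). Itgax, which encodes the integrin subunit CD11c, had 72.5, 48.6, 74.0 and 53.2 CPM in KO and 33.7, 24.2, 22.0 and 37.1 in WT. All 4 KO libraries lay above all WT libraries, at 1.09 ± 0.19 (adjusted p = 0.0986). At the other times the log2 difference in Itgax was 1.01 ± 0.16 before LPS (adjusted p = 0.124), 1.04 ± 0.18 at 3 h (0.0384), 0.94 ± 0.17 at 6 h (0.026) and 1.08 ± 0.16 at 24 h (0.0387). The others on this side were Tnc, the matrix protein tenascin C (1.70 ± 0.32, at means of 8.43 and 2.65 CPM), Serpinb9b, a serpin related to the granzyme B inhibitor Serpinb9 (0.88 ± 0.16), and Hspa1a, the inducible heat shock protein (0.80 ± 0.14). Ezr, which links membrane to actin, differed by 0.54 ± 0.097, Prdx6, a peroxide-reducing enzyme, by 0.54 ± 0.10, and Srxn1, which repairs peroxiredoxins, by 0.55 ± 0.11. Their adjusted p ran from 0.0931 to 0.104.

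On the lower side Lfng, a glycosyltransferase that acts on Notch receptors, had 16.0, 12.9, 25.3 and 19.3 CPM in KO and 34.0, 34.4, 31.8 and 42.2 in WT, at -0.96 ± 0.19 (adjusted p = 0.104). Klf7, a transcription factor, had 78.6, 81.0, 82.3 and 66.5 CPM in KO and 103, 101, 112 and 115 in WT, at -0.48 ± 0.10 (adjusted p = 0.121). At 6 h the Klf7 difference was -0.71 ± 0.11 and passed (adjusted p = 0.003). Receptors on this side were Clec4a3, a C-type lectin (-0.53 ± 0.12), and Lair1, an inhibitory collagen receptor (-0.43 ± 0.10). Regulators of the cytoskeleton were Pak1, a kinase activated by Rac and Cdc42 (-0.80 ± 0.19), Arhgef7, an exchange factor for those GTPases (-0.53 ± 0.13), and Rcsd1, which binds the actin capping protein (-0.54 ± 0.13). The rest were Rif1, which controls replication timing (-0.53 ± 0.12), the transcription factor Mef2c (-0.45 ± 0.10), the isoleucyl transfer RNA synthetase Iars (-0.54 ± 0.13) and the antiviral membrane protein Ifitm1 (-0.49 ± 0.12). Adjusted p for these 11 genes ran from 0.104 to 0.208, so none passed.

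Gene lists are described by how many tested members had a log2 difference above 0 and by their median, beside 49% and a median of -0.0045 over all genes tested. Counts of members at an unadjusted p under 0.05 stand beside 3.87% higher and 3.85% lower over all genes, and counts without overlap beside 2.75% higher and 2.19% lower. Of the list members, Pfkfb3 and Procr passed the test and no other did. The counts were repeated under 18 settings, the one reported and its alternatives, and the range over them is given where it bears on the direction.

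Of TLR sensors, adaptors and kinases 10 of 23 were above 0 (median -0.064; the median stayed below 0 in all 18 settings). Tlr4, the LPS receptor, had 54.9, 56.8, 62.4 and 54.8 CPM in KO and 69.7, 66.5, 64.7 and 68.6 in WT, which did not overlap, at -0.23 ± 0.095 (adjusted p = 0.583). Cnpy3, a chaperone of TLRs, differed by -0.26 ± 0.12 (adjusted p = 0.622).

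Of the linear ubiquitin machinery 8 of 16 were above 0, and the median of 0.0051 changed sign between settings. The subunits of LUBAC differed by -0.18 ± 0.13 (Rnf31), -0.13 ± 0.12 (Sharpin) and -0.037 ± 0.13 (Rbck1). The deubiquitinase Cyld stood at -0.05 ± 0.13, and Tnfaip3, the ubiquitin-editing enzyme A20, at 0.046 ± 0.30. Otulinl, a relative of Otulin without catalytic activity, had 34.1, 36.5, 27.9 and 45.1 CPM in KO and 56.8, 44.1, 51.2 and 56.7 in WT, at -0.54 ± 0.15 (adjusted p = 0.286). KO 4 lay above WT 2, so the groups overlapped. Ikbkg had 99.5 to 109 CPM in KO and 77.9 to 93.8 in WT, at 0.25 ± 0.095 (adjusted p = 0.518), and overlaps G6pdx on the other strand.

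Of NF-kB subunits, kinases and feedback genes 19 of 27 were above 0 (median 0.054, 0.031 to 0.11 over the settings). The subunits stood at 0.17 ± 0.095 (Rela), -0.081 ± 0.14 (Nfkb1) and 0.033 ± 0.14 (Rel), and the inhibitor Nfkbia, an early target, at -0.10 ± 0.094. Tnip3, a partner of A20, had 654, 572, 527 and 515 CPM in KO and 385, 432, 493 and 462 in WT, which did not overlap, at 0.35 ± 0.11 (adjusted p = 0.352).

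The main inflammatory cytokines overlapped between genotypes. Tnf had 270.5, 233, 242 and 306 CPM in KO and 416, 306, 284 and 227 in WT (-0.23 ± 0.16, adjusted p = 0.802). Il1b had 421, 453, 428 and 670.5 in KO and 599, 495, 290.5 and 333 in WT (0.20 ± 0.24, adjusted p = 0.898), and Il6 30.4, 33.1, 19.8 and 41.7 in KO and 53.7, 20.1, 35.8 and 9.57 in WT (0.064 ± 0.45, adjusted p = 0.985). In all 3 WT 1 was the highest WT library, and the sign of the Il6 difference changed when single libraries were left out. Of 18 inflammatory cytokines tested 10 were above 0. Il1rn, which encodes the receptor antagonist of interleukin 1, had 2142 to 2419 CPM in KO and 1558 to 2110.4 in WT, without overlap, at 0.34 ± 0.11 (adjusted p = 0.381).

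Of chemokines 12 of 19 were above 0 (median 0.13, but 0.0014 without KO 4 and 0.049 without WT 3). Ccl6 had 698, 702, 687 and 802 CPM in KO and 534, 485, 504 and 603 in WT, which did not overlap, at 0.44 ± 0.098 (adjusted p = 0.151). At 6 h the same gene differed by 0.48 ± 0.072 and passed (adjusted p = 0.003). The neutrophil attractant Cxcl1 (0.84 ± 0.33, adjusted p = 0.576), the T cell attractant Cxcl9 (0.57 ± 0.20, adjusted p = 0.493) and Ccl22 (-0.66 ± 0.26, adjusted p = 0.555) had overlapping groups.

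Of 49 genes of the type 1 interferon response 35 were above 0 with a median of 0.051, which ran from -0.018 to 0.09 over the settings and so changed sign. Trim25, a ubiquitin ligase of the RIG-I pathway, had 575, 593, 559 and 499.7 CPM in KO and 404, 439, 416 and 367 in WT, without overlap, at 0.45 ± 0.094 (adjusted p = 0.119). Oasl1, a member of the oligoadenylate synthetase family, had 406 to 447 CPM in KO and 266 to 368 in WT, at 0.42 ± 0.11 (adjusted p = 0.25). At 6 h both passed, at 0.41 ± 0.074 (0.0121) and 0.52 ± 0.094 (0.0117). Of interferon gamma-inducible GTPases and targets 14 of 20 were above 0 (median 0.056, which changed sign between settings), and Tgtp1, which has a near-identical copy, stood at 0.23 ± 0.11 (adjusted p = 0.638). The copy, Tgtp2, stood at 0.083 ± 0.11 (edgeR, adjusted p = 0.903). Tgtp1 also overlaps Olfr56 on the other strand, at 146 CPM.

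Of 31 cell death genes 15 were above 0 (median -0.025, which changed sign between settings). Nlrp3, the inflammasome sensor, had 58.4, 50.1, 41.0 and 47.2 CPM in KO and 71.2, 49.2, 62.7 and 34.8 in WT (-0.15 ± 0.19, adjusted p = 0.907). The kinase Ripk3 had 6.95, 8.14, 6.91 and 7.63 in KO and 3.80, 6.88, 7.45 and 9.80 in WT (0.078 ± 0.25, adjusted p = 0.97), and Mlkl, the pore former of necroptosis, 93.6, 98.4, 88.9 and 88.7 in KO and 91.0, 94.8, 91.7 and 80.3 in WT (0.048 ± 0.095, adjusted p = 0.95). All 3 overlapped between genotypes.

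Genes of glucose use stood above 0 together. Of 18 glycolytic genes tested 18 were above 0, with a median of 0.18, 7 higher at an unadjusted p under 0.05 (3.87% over all genes) and 6 higher without overlap (2.75%). Slc2a1, the glucose transporter, had 145, 143, 181 and 128 CPM in KO and 114, 118, 93.9 and 108 in WT, at 0.47 ± 0.12 (adjusted p = 0.253). Hk1, a hexokinase, had 175, 167, 193 and 162 in KO and 135, 148, 135 and 137 in WT, at 0.33 ± 0.093 (adjusted p = 0.31). Pfkp, a phosphofructokinase that overlaps Pitrm1 on the other strand, had 124, 101, 156 and 106 in KO and 84.1, 91.0, 91.7 and 88.2 in WT, at 0.46 ± 0.13 (adjusted p = 0.317). In these 3 genes every KO library lay above every WT library. Later steps had smaller values: 0.18 ± 0.083 for Aldoa, 0.092 ± 0.11 for Gapdh, 0.09 ± 0.086 for Pkm and 0.16 ± 0.10 for Ldha. The list level in a library is the median over members of log2 CPM relative to the mean of all 8. It was 0.021 to 0.16 in KO and -0.17 to -0.079 in WT. The number above 0 was 17 to 18 over the settings.

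Of 24 targets of NRF2, the transcription factor of oxidative stress, 23 were above 0 (median 0.26; 9 at an unadjusted p under 0.05). Prdx6 had 151, 195, 177 and 174 CPM in KO and 125, 122, 109.9 and 121 in WT, and Srxn1 287, 309.5, 319.6 and 326 in KO and 252, 212, 184 and 202 in WT, both without overlap. Prdx1, a peroxiredoxin, had 3274, 3019, 3099.7 and 3701 in KO and 2873, 2499, 1983 and 2158 in WT, without overlap, at 0.46 ± 0.12 (adjusted p = 0.268). Gclm, the regulatory subunit of the glutathione-making ligase, had 178, 193, 181 and 206 in KO and 187, 126, 112 and 109.9 in WT, at 0.51 ± 0.15 (adjusted p = 0.352), and WT 1 lay within the KO range. At 6 h Prdx1 (0.45 ± 0.066, adjusted p = 0.00273), Srxn1 (0.62 ± 0.097, 0.00425) and Gclm (0.67 ± 0.11, 0.00752) passed. The 1 member below 0 was Tkt, at -0.19 ± 0.13. The list level overlapped between genotypes, 0.082 to 0.36 in KO and -0.33 to 0.14 in WT, with KO 4 highest and WT 1 within the KO range.

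Nuclear genes of oxidative phosphorylation were above 0 in 40 of 41 cases (median 0.14), and cytosolic ribosomal proteins in 54 of 56 (median 0.14). KO 4 stood apart in both: its oxidative phosphorylation level was 0.26 against -0.056 to 0.054 in the other KO libraries and -0.14 to -0.0053 in WT, and its ribosomal protein level was 0.37 against -0.11 to 0.0078 in the other KO libraries and -0.15 to -0.031 in WT. Without KO 4 the counts were 31 of 41 and 37 of 56, with medians of 0.065 and 0.023. Ndufa6, a subunit of complex I, had 141 to 153 CPM in KO and 122 to 136 in WT, at 0.20 ± 0.089 (adjusted p = 0.628), and Cox5b, of the cytochrome oxidase, stood at 0.23 ± 0.10 (adjusted p = 0.624). Among ribosomal proteins the smallest p belonged to Rpl10a (0.27 ± 0.11), Rpl21 (0.23 ± 0.094) and Rpl37 (0.29 ± 0.12), with adjusted p from 0.576 to 0.603. Of the 13 genes encoded by the mitochondrial genome 1 was above 0 (median -0.11), against 9 without KO 3 and 8 without WT 2. KO 3 had the lowest share of tags (1.32%, against 1.62 to 2.42% in the other 7), and the median changed sign between settings. Of the TCA cycle and itaconate 15 of 20 were above 0 (9 without KO 4), and Suclg2, a ligase subunit, stood at -0.94 ± 0.36 (adjusted p = 0.527) from means of 2.41 and 4.51 CPM.

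Cholesterol synthesis stood on the other side, with 21 of 23 genes below 0, a median of -0.23 and 7 at an unadjusted p under 0.05. Sc5d, a late enzyme of the pathway, had 114, 111, 117 and 112 CPM in KO and 151, 134, 139.8 and 191 in WT, which did not overlap, at -0.44 ± 0.12 (adjusted p = 0.268). Insig1, the sterol sensor that retains SREBP, had 40.6, 33.3, 40.1 and 42.4 in KO and 50.7, 46.9, 49.3 and 54.8 in WT, also without overlap, at -0.37 ± 0.11 (adjusted p = 0.352). Srebf2, the transcription factor of the pathway, stood at -0.31 ± 0.098 (adjusted p = 0.381), and Cyp51, which overlaps Akap9, at -0.35 ± 0.12 (adjusted p = 0.405). The list level was -0.16 to -0.066 in KO and -0.11 to 0.30 in WT: WT 2 lay among the KO libraries and the other 3 WT libraries above. The median stayed below 0 in all 18 settings (-0.30 to -0.18). Fasn, the fatty acid synthase, had 16.9, 16.5, 20.3 and 23.1 CPM in KO and 28.9, 23.2, 29.5 and 48.1 in WT, without overlap, at -0.76 ± 0.21 (adjusted p = 0.31). Of LXR targets and lipid storage genes, which include Fasn, 17 of 21 were above 0, against 12 of 22 without KO 4 and 13 of 21 without WT 3. The lipid carriers Fabp5 (0.34 ± 0.097, adjusted p = 0.317) and Fabp4 (0.59 ± 0.21, adjusted p = 0.49) and the fatty acid receptor Cd36 (0.31 ± 0.12, adjusted p = 0.538) lay above 0, and at 6 h Fabp5 and Cd36 passed (0.35 ± 0.063, 0.0115, and 0.52 ± 0.070, 0.00217).

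Of 33 cell cycle genes tested 25 were below 0 (median -0.24; 6 at an unadjusted p under 0.05). Cdc6, which licenses replication origins, had 3.94, 3.78, 0.922 and 3.34 CPM in KO and 5.07, 5.10, 7.45 and 10.0 in WT, at -1.20 ± 0.36 (adjusted p = 0.352). Ccnd1, cyclin D1, had 540.2, 465, 596 and 406 in KO and 619.7, 714, 608 and 673 in WT, at -0.38 ± 0.12 (adjusted p = 0.359), and neither gene overlapped between genotypes. The Ccnd1 gene shares sequence with LTO1 on the other strand. Top2a, a topoisomerase of dividing cells, had 32.7, 48.8, 39.6 and 38.1 in KO and 43.3, 49.7, 70.3 and 80.5 in WT (-0.62 ± 0.19, adjusted p = 0.381), and Mcm3, of the replicative helicase, 20.7 to 36 in KO and 27.9 to 50.9 in WT (-0.62 ± 0.21, adjusted p = 0.427). WT 3 and WT 4 were the 2 highest libraries for Top2a. Without WT 4 the list median was -0.16, and without both male animals -0.092. The list level overlapped between genotypes, -0.17 to 0.0935 in KO and -0.16 to 0.27 in WT.

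Among stress programmes, 11 of 13 heat shock genes were above 0 (median 0.17). Their list level overlapped between genotypes, -0.035 to 0.16 in KO and -0.15 to 0.063 in WT. Hspa1a had 206, 253, 150.5 and 232 CPM in KO and 135, 119, 111 and 118 in WT, without overlap, and its near-identical neighbour Hspa1b 158, 188, 93.1 and 169 in KO and 114, 78.2, 81.9 and 61.8 in WT, at 0.86 ± 0.23 (adjusted p = 0.317). Tags of this pair can be assigned to either gene, so the split between them is uncertain. The co-chaperones Dnajb1 (0.25 ± 0.10, adjusted p = 0.583) and Dnaja1, which overlaps Smu1 on the other strand (0.23 ± 0.10, adjusted p = 0.602), lay above 0. Without the male animals Hspa1a was 1 of 2 genes called, at 0.92 ± 0.12 (adjusted p = 0.0435). Of the unfolded protein response 8 of 25 were above 0 (median -0.061), against 12 without WT 1 (median -0.0020) and 12 without KO 3 (median -0.019). Ppp1r15a, a phosphatase subunit of the stress response, stood at 0.35 ± 0.13 (adjusted p = 0.522).

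Of 38 lysosomal genes 32 were above 0 (median 0.062). Without WT 3 the count was 25 and the median 0.019, and without WT 1 the median was 0.11. The lysosomal list level overlapped between genotypes, -0.0585 to 0.097 in KO and -0.145 to 0.0635 in WT. Atp6v0d2, a subunit of the proton pump, had 75.8, 62.8, 70.7 and 54.8 CPM in KO and 44.4, 34.1, 42.7 and 51.3 in WT, without overlap, at 0.61 ± 0.14 (adjusted p = 0.163). The cathepsins Ctsk (0.63 ± 0.19, adjusted p = 0.345) and Ctsl (0.30 ± 0.11, adjusted p = 0.526) lay above 0, and at 6 h both passed (0.96 ± 0.19, 0.0181, and 0.35 ± 0.076, 0.034). Of autophagy genes 17 of 24 were above 0 (median 0.13), and the list level did not overlap, 0.034 to 0.087 in KO and -0.064 to 0.0051 in WT. The starting kinase Ulk1 had 32.7 to 39.4 CPM in KO and 24.1 to 30.6 in WT (0.40 ± 0.12, adjusted p = 0.357), and the receptor Sqstm1 939.9 to 1111 in KO and 742 to 960.1 in WT (0.28 ± 0.11, adjusted p = 0.549). Of proteasome genes 26 of 31 were above 0 (median 0.091), and 20 of 31 without KO 4 (median 0.046). KO 4 had a list level of 0.20 against -0.021 to 0.036 in the other KO libraries and -0.11 to -0.0067 in WT. Single values were led by Psmd8 at 0.22 ± 0.083 (adjusted p = 0.518) and Psmb6 at 0.19 ± 0.085 (adjusted p = 0.627). Of iron and metal handling genes 13 of 15 were above 0, with a list level of 0.0036 to 0.095 in KO and -0.076 to -0.018 in WT. The iron exporter Slc40a1 had 73.0, 109, 66.6 and 72.5 CPM in KO and 61.8, 52.2, 42.8 and 43.6 in WT (0.69 ± 0.17, adjusted p = 0.21), and the importer Slc11a2 stood at 0.24 ± 0.096 (adjusted p = 0.555).

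Of growth factor, coagulation and plasminogen genes 15 of 23 were above 0, with a median of 0.25 and 9 higher at an unadjusted p under 0.05 (3.87% over all genes), Procr among them. The median was 0.14 without KO 4 and 0.14 without WT 4. Their list level did not overlap, 0.034 to 0.28 in KO and -0.24 to -0.075 in WT. F10, coagulation factor X, had 281 to 312 CPM in KO and 196 to 261 in WT, without overlap, at 0.43 ± 0.10 (adjusted p = 0.199). Serpinb9, the granzyme B inhibitor, had 95.4 to 115 in KO and 73.5 to 88.2 in WT, at 0.38 ± 0.10 (adjusted p = 0.303), and Serpinb9b 32.9, 38.4, 47.7 and 50.3 in KO and 27.6, 25.2, 20.6 and 19.1 in WT. Of matrix proteases and inhibitors 11 of 17 were above 0: the gelatinase Mmp9 had 9.97, 11.7, 13.1 and 11.4 CPM in KO and 7.10, 4.33, 3.88 and 6.77 in WT, without overlap, at 1.09 ± 0.22 (adjusted p = 0.119). The collagenase Mmp13 stood at 0.31 ± 0.091 (adjusted p = 0.345) and the elastase Mmp12 at 0.49 ± 0.18 (adjusted p = 0.521). At 6 h Mmp9 (1.17 ± 0.16, 0.00228) and Mmp12 (0.60 ± 0.11, 0.0144) passed.

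Inhba, which encodes the activin A subunit, had 39.2, 40.5, 46.5 and 36 CPM in KO and 36.5, 26.5, 21.6 and 14.0 in WT. WT 1 lay within the KO range, and the difference of 0.73 ± 0.23 did not pass (edgeR, adjusted p = 0.379). At 3 and 6 h it did, at 0.86 ± 0.13 (0.00526) and 1.38 ± 0.11 (3.83e-06), and at 24 h it was 0.67 ± 0.25 (0.562). The difference at 12 h less that at 6 h was -0.66 ± 0.25, which did not pass as an interaction. An antisense transcript, B230303A05Rik, overlaps Inhba. Of activin and TGF-beta signalling genes 12 of 19 were above 0. The inhibitor of differentiation Id2 stood at 0.25 ± 0.10 (adjusted p = 0.577), the matrix protein Tgfbi at -0.31 ± 0.13 (adjusted p = 0.583), and the receptor Bmpr1a at -1.45 ± 0.55 (adjusted p = 0.518) from means of 1.46 and 4.02 CPM.

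Nos2, the inducible nitric oxide synthase, had 627, 447, 401 and 547 CPM in KO and 346, 289, 334 and 199.7 in WT. Every KO library was above every WT library, at 0.79 ± 0.18 (adjusted p = 0.199), while the difference was -0.36 ± 0.097 at 3 h (0.118) and 0.35 ± 0.12 at 6 h (0.254). Of arginine and nitric oxide genes 9 of 11 were above 0, with Azin1, which spares ornithine decarboxylase, at 0.21 ± 0.084 (adjusted p = 0.576) and the arginine transporter Slc7a1 at -0.36 ± 0.15 (adjusted p = 0.583). Of prostaglandin and leukotriene genes 11 of 15 were above 0. Pla2g4a, the phospholipase that frees arachidonate, had 73.5 to 88.7 CPM in KO and 56.0 to 66.6 in WT (0.39 ± 0.11, adjusted p = 0.295). The prostaglandin E receptor Ptger4, which overlaps Ttc33, stood at -0.46 ± 0.15 (adjusted p = 0.417) and Ptgfrn at 0.67 ± 0.27 (adjusted p = 0.583).

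Of complement genes 4 of 13 were above 0, against 8 of 13 without KO 4 and 7 of 14 without WT 1 or without WT 4. The component C2 had 6.49, 3.03, 2.53 and 3.81 CPM in KO and 0.76, 0.764, 0.776 and 0 in WT, at 2.69 ± 0.52 (adjusted p = 0.105). These are few counts, and C2 overlaps Gm20547 and Zbtb12. The anaphylatoxin receptor C5ar1 had 100.1, 108, 90.3 and 129 in KO and 161, 138, 139 and 139 in WT, without overlap, at -0.43 ± 0.12 (adjusted p = 0.295). Of class I antigen presentation 9 of 21 were above 0 (median -0.0079, which changed sign between settings; 5 above 0 without KO 4), and none reached an unadjusted p under 0.05. Of class II and costimulation 4 of 14 were above 0, with Cd40 at 0.34 ± 0.12 (adjusted p = 0.481), H2-DMa, which overlaps Brd2, at -0.31 ± 0.12 (adjusted p = 0.524), and the costimulatory ligand Icosl at -0.65 ± 0.27 (adjusted p = 0.587). Of 13 integrin genes 6 were above 0, and Itgax alone had an unadjusted p under 0.05. The median also changed sign between settings for complement, integrins, the TCA cycle, activin signalling, early factors and phosphatases.

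Early factors lay on both sides: 13 of 25 AP-1, EGR and early genes were above 0. Klf2, a factor that quiets macrophages, had 20.9, 20.2, 24.7 and 22.4 CPM in KO and 30.2, 30.6, 26.5 and 32.9 in WT, without overlap, at -0.44 ± 0.12 (adjusted p = 0.313). Atf3 stood at 0.28 ± 0.10 (adjusted p = 0.49) and Jund at 0.25 ± 0.094 (adjusted p = 0.518). Of MAP kinase phosphatases and mRNA decay genes 9 of 15 were above 0. The phosphatase Dusp1, which overlaps Ergic1, had 402, 348, 366 and 260.4 CPM in KO and 217, 271, 239.7 and 242 in WT (0.50 ± 0.13, adjusted p = 0.227), where KO 4 lay below WT 2. Dusp6, which acts on ERK, had 67.9, 83.6, 80.6 and 92.3 in KO and 124, 112, 98.4 and 106 in WT, without overlap, at -0.44 ± 0.11 (adjusted p = 0.264). The mRNA decay factors Zfp36l2 (0.33 ± 0.093, adjusted p = 0.317) and Zc3h12a (0.33 ± 0.11, adjusted p = 0.405) lay above 0 without overlap.

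**Figure D4:**
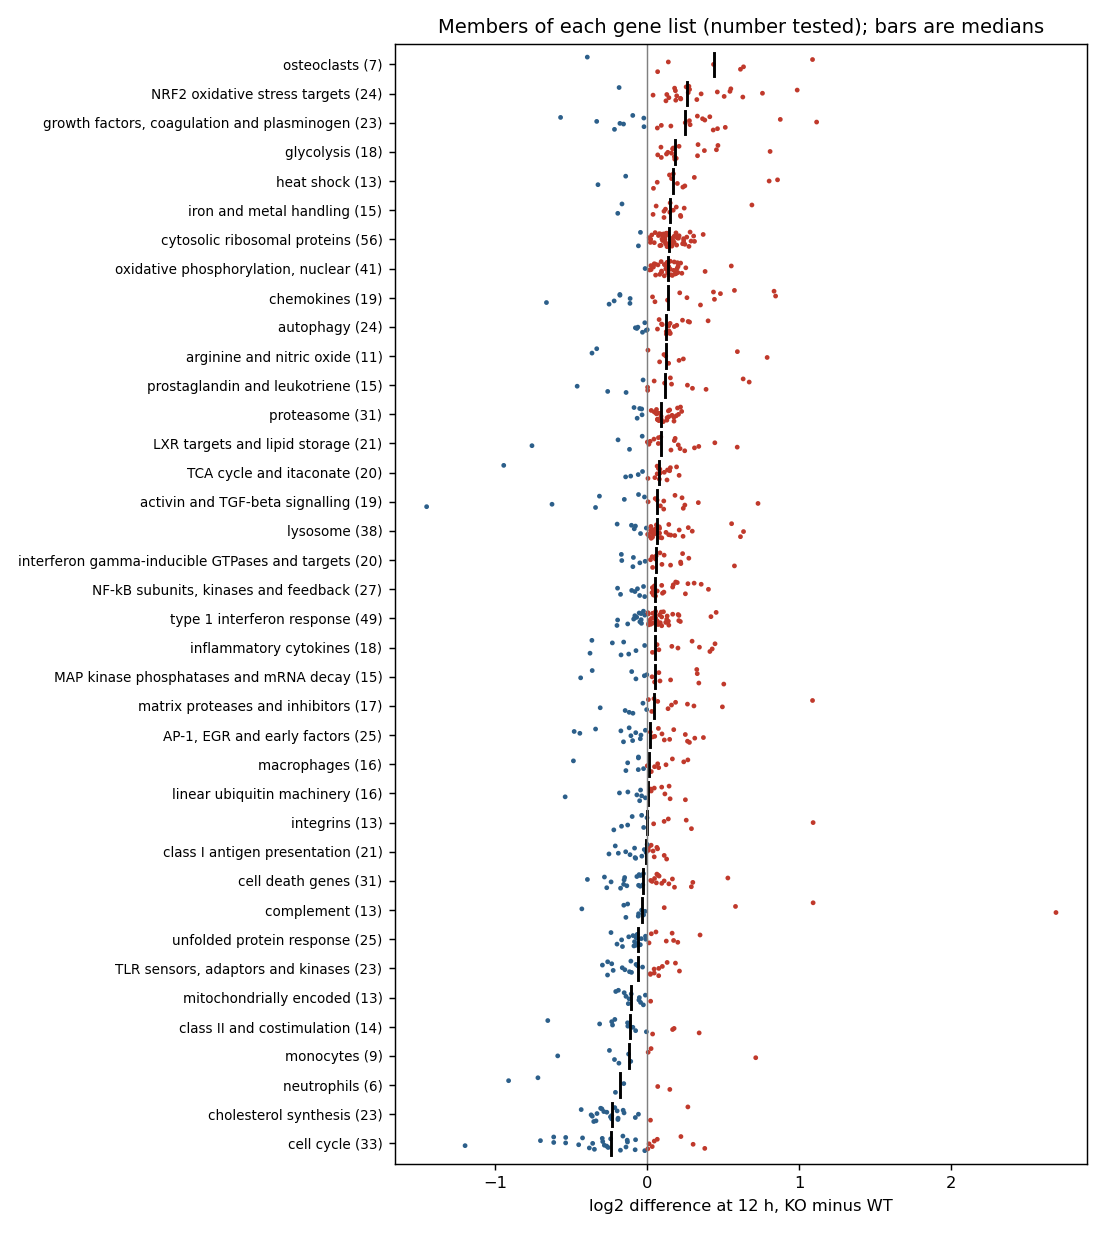
Log2 difference between KO and WT at 12 h for each tested member of each gene list (red above 0, blue below), with the number tested in brackets and the median as a black bar. All 18 glycolysis members lie above 0, and 21 of 23 members of cholesterol synthesis lie below.

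Markers of other cells were set beside these lists. Osteoclast markers, several of which are lysosomal or matrix genes named above, were above 0 in 6 of 7 cases (median 0.44, and 0.26 without WT 2, whose level was the lowest). Their list level did not overlap, 0.11 to 0.51 in KO and -0.63 to -0.043 in WT, and their summed level was 131 to 151 CPM in KO and 91.2 to 125 in WT. Nfatc1, the osteoclast master factor, had 13.7, 10.0, 12.4 and 11.9 CPM in KO and 17.0, 15.5, 14.0 and 16.8 in WT, the 1 member below 0, at -0.39 ± 0.15 (adjusted p = 0.549), and Calcr and Oscar stayed under 1 CPM. Monocyte markers were above 0 in 3 of 9 cases, with Ly6c2 at -0.59 ± 0.17 (adjusted p = 0.317) and Fn1, fibronectin, at 0.71 ± 0.28 (adjusted p = 0.561). The list level of monocyte markers did not overlap, -0.13 to -0.055 in KO and -0.052 to 0.22 in WT, while their sums did, at 863 to 972 CPM in KO and 905 to 1008 in WT. Their median was -0.12, -0.041 without WT 3, -0.20 without KO 4 and -0.23 without WT 4. Neutrophil markers had 2 of 6 above 0, with Ly6g and Retnlg at 0 in all 8 libraries, S100a9 at -0.91 ± 0.25 (adjusted p = 0.31) and Wfdc21 at -0.72 ± 0.26 (adjusted p = 0.475), and sums of 249 to 311 CPM in KO and 270.1 to 314 in WT. The platelet chemokine Pf4, which macrophages also express, stood at 0.30 ± 0.11 (adjusted p = 0.517), while Alas2 of red cell precursors was at 0. Of 9 dendritic cell markers 2 were tested, 1 of them above 0. Sums over the 9 overlapped, at 11.4 to 22.6 CPM in KO and 15.4 to 18.5 in WT. The macrophage marker Lgals3, a galectin, stood at 0.24 ± 0.10 (adjusted p = 0.592). The part of these cells or states in the differences was not tested.

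**Figure D5:**
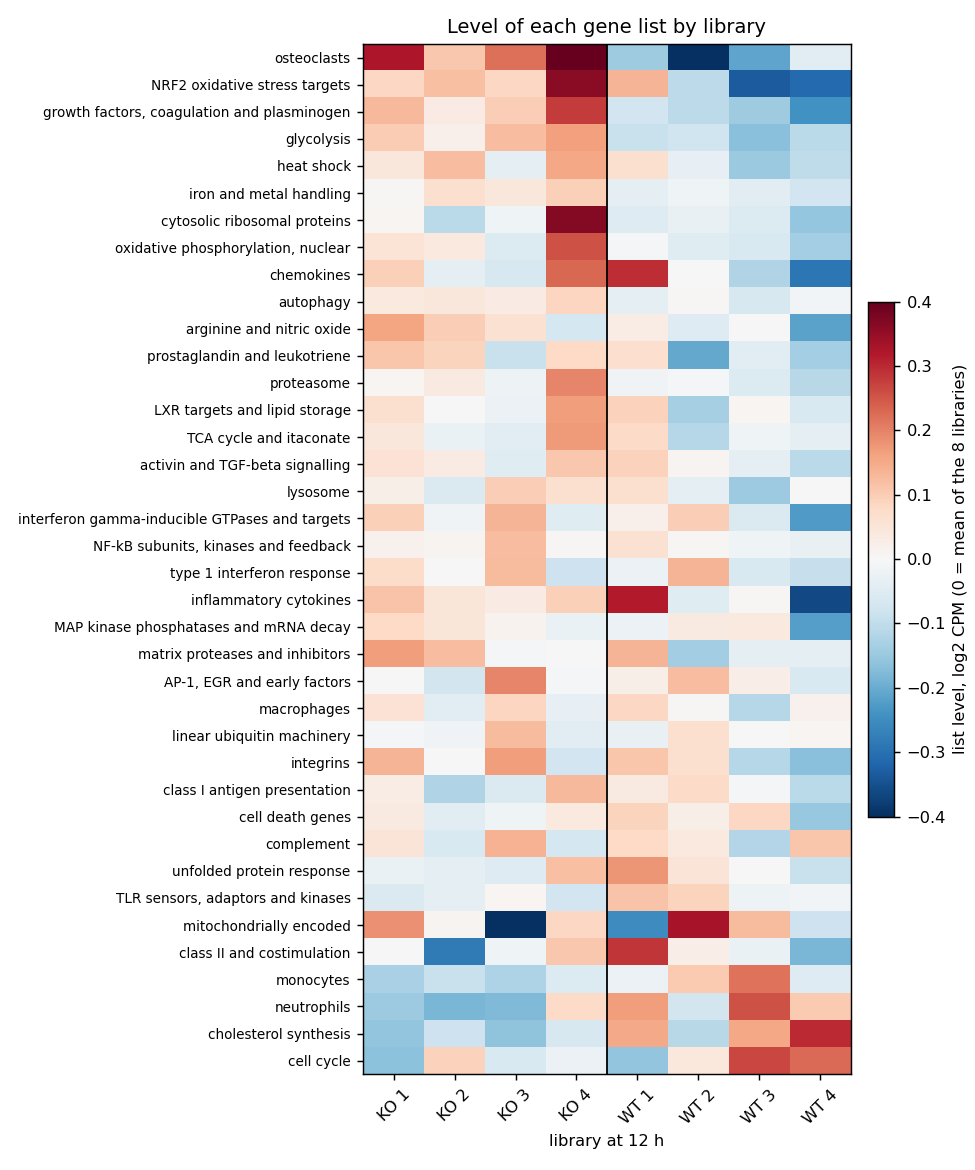
Median over the members of each gene list, in each library, of log2 CPM relative to the mean over the 8 libraries. The 8 values of a list need not average 0. Colours end at -0.4 and 0.4. Glycolysis runs from 0.021 to 0.16 in KO and from -0.17 to -0.079 in WT, and KO 4 is the darkest library for ribosomal proteins (0.37). In most lists the KO and WT ranges overlap.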

How the data were processed

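The values were expected counts per gene that the authors deposited for 40 libraries. The submitters' processing notes name RSEM 1.3.3, STAR 2.7.10a, cutadapt 3.7, UMI-tools 1.1.2 and FastQC 0.11.9, and the build GRCm39. The annotation, tool settings and use of strand: not given in the sources used here. All expected counts in the deposited table were whole (100%), and 52029 of 57010 identifiers had a symbol through a GENCODE name table.

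The 4 KO and 4 WT libraries at 12 h were fitted with edgeR 4.0.16 (R 4.3.3): TMM scaling, filterByExpr at a minimum count of 10, a robust quasi-likelihood F-test with a prior count of 0.125, two-sided, with Benjamini-Hochberg adjustment at 0.05. This left 10783 genes. Standard errors are the log2 difference divided by the root of F. CPM at 12 h were scaled over the 8 libraries, and time courses over all 40. Other times were fitted separately, and each interaction over the 16 libraries of both times, taken as independent. Between 12 and 24 h, libraries with the same number deviated together in all 8 cases (r from 0.149 to 0.483), which is from the data and not the labels. Against 0 h r ran from -0.084 to 0.27, and against 6 h from -0.0067 to 0.52.

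Named genes were fixed genes, up to 12 called or leading genes per direction with at least 5 CPM and no overlap, and up to 4 members of each of 43 lists with the smallest p under 0.05. Some genes are not reported here. The groups, members and lists were chosen with earlier results of these data known. Alternatives were DESeq2 1.42.0, limma-voom (limma 3.58.1), DESeq2-style size factors, other filters, a non-robust fit, a replicate block, each library left out, both male animals left out, and 1 fit of all 40 libraries. List counts under these alternatives were added after seeing the data. The procedure was tested on simulated data. Over the 12 replicate pairs, chi-square per degree of freedom was 2.88 to 18.9, so replicates differed by more than sampling noise.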

Additional observations from a re-analysis of the deposited data

Results flagged for a closer look

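In 238 groups of 4 values looked at, 18 (7.56%) had 1 sample far from the other 3 by Dixon's criterion, and chance marks about 1 group in 20. Among cytokines and chemokines, Il1b was high in KO 4 (670.5 CPM, against 421 to 453 in the other KO libraries), as was Ccl6 (802 against 687 to 702), and Ccl22 was low in KO 2 (11.0 against 18.8 to 19.3). Of the 5 called genes, Serpinb1a was low in KO 2 (17.2 against 22.6 to 23.4) and Procr high in WT 1 (289 against 174 to 189).

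In WT 1, Iars (41.1 CPM, against 31.8 to 33.4 in the other WT libraries), Ctsl (1437 against 1214 to 1242) and C5ar1 (161 against 138 to 139) were high as well. Arhgef7 was high in KO 3 (51.8 against 36.5 to 38.5), Slc40a1 in KO 2 (109 against 66.6 to 73.0), Rpl21 in KO 4 (136 against 118 to 120.3), Hk1 in WT 2 (148 against 135 to 137) and Fabp5 in WT 4 (1106 against 957 to 982). C2 was at 0 CPM in WT 4 and at 0.76 to 0.776 in the other WT libraries.

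Total counts were high in KO 2 (5264452, against 4290997 to 4455350) and WT 3 (6195781, against 4007478 to 4123314). Cytosolic ribosomal proteins took 2.41% of counts in KO 4 (1.80 to 1.88% in the other KO libraries), and mitochondrially encoded genes 1.32% in KO 3 (1.86 to 1.95%).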

How the results depend on the processing

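Against 5 called genes at 12 h, DESeq2 called 57, limma-voom 1, a fit without a filter on low counts 158, a non-robust fit 2, and 1 fit of all 40 libraries 125. DESeq2-style size factors and a minimum of 5 CPM left 5. Leaving out 1 library gave 0 to 18 calls, and leaving out both male animals 2 (Serping1 and Hspa1a). Replicate numbers did not pair KO with WT (same-number r of -0.313 to 0.0835), and a fit with replicate number as a block across both genotypes called 0 genes at 12 h. The interaction fits used another block, same-numbered libraries of one genotype, and 1 gene passed against 6 h. Interactions against 0 h gave 1 call in DESeq2, 40 without a filter, and 0 to 1 with 1 library left out. Against 6 h they gave 3 without a filter, 2 without the male animals, and 0 to 1 with 1 library left out, and against 24 h 1 in DESeq2 and 1 without a filter. Over 18 settings Serpinb1a and Procr were called in 11 each, Crbn and Fgd2 in 9 each and Pfkfb3 in 8, and none of the 5 changed sign. Small log2 differences changed sign. With 1 library left out, Otulin ran from -0.069 to 0.067 (0.012 without WT 1, 0.0057 without WT 2), Il6 from -0.23 to 0.48 (-0.10 without KO 4, -0.078 without WT 2), Nlrp3 from -0.31 to 0.0032, Ripk3 from -0.11 to 0.27 and Mlkl from -0.0006 to 0.076. Otulin was 0.062 without the male animals and 0.006 in the fit of all 40 libraries, and Il6 was at -0.0626 without the male animals. The cause of these changes was not tested. At the median library 5 CPM is about 21.8 counts, so differences in rarer genes were measured with little precision.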

Other observations

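Some genes outside the lists and the naming rule were looked at after their values were seen. Hif1a, the oxygen-regulated subunit of the hypoxia factor, had 283, 263, 304 and 236 CPM in KO and 203, 197, 199.5 and 211 in WT. Every KO library lay above every WT library, at a log2 difference of 0.42 ± 0.097 (edgeR, adjusted p = 0.172). Hilpda, a lipid droplet protein induced in hypoxia, had 126, 158, 160.1 and 106 CPM in KO and 82.4, 83.1, 81.6 and 102 in WT, also without overlap, at 0.65 ± 0.14 (adjusted p = 0.121). Vegfa had 63.5, 55.2, 50.2 and 50.5 CPM in KO and 42.3, 45.4, 46.9 and 39.9 in WT, at 0.33 ± 0.11 (adjusted p = 0.435). None of the 3 passed the test. Over all genes tested, 2.75% were higher in KO without overlap, and no list of hypoxia genes was among those described.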
